A study of Rattus norvegicus with 60 samples.

Results

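RNA of rat hind limb muscle 24 h after a contusion was compared with that of uninjured control muscle, over 8 libraries of 24 h and 6 control libraries of the 60 columns of the deposited count table. The animals were male Sprague Dawley rats. In the injured group a weight was dropped on the depilated right hind limb under chloral hydrate, and muscle was taken from the wound 24 h later. The controls received no blow and were killed partway through the period of the experiment, with no sham treatment named, so that anesthesia, hair removal and hour of death cannot be told apart from the contusion. Each library came from a different rat, with no pooling named, and whole muscle was used, so that all cell types of the tissue contribute to each value.

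The libraries were chosen by the position of their count column and not by its heading, because the 2 disagree. By heading, the 8 columns used as 24 h would be 6 columns of the 20 h group and 2 of the 24 h group, and the 6 columns used as controls would all belong to the 48 h group. The counts were therefore compared with a table of the study that gives normalized values of named libraries for 1288 genes. Each of the 14 columns was set beside the 49 libraries of that table, after scaling by 1 factor per pair. With its best partner, always a library named for the group used here, the counts of 99.73% to 100% of the genes read lay within 0.5 read. No other library came above 3.891% in any column. All results below rest on this assignment, and if the headings were right none of them would compare 24 h with uninjured muscle. Library numbers below follow the order of the columns within a group and are names only.

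Skeletal muscle that is crushed loses the membrane and the contractile apparatus of part of its fibers. Neutrophils enter from the blood first, and monocytes that become macrophages follow and clear the debris. Satellite cells, the stem cells of muscle, then leave quiescence, divide and fuse into new fibers, while a provisional matrix fills the gap. Fibers that survive the blow respond to stretch, to loss of nerve input and to protein damage with gene programs of their own.

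The total count ran from 16372673 to 34909145 over the 14 libraries, and 15033 to 15705 genes had a read. In all, 16204 genes had a total of 5 or more and were tested with edgeR's quasi-likelihood test. A gene was called higher or lower where the adjusted p was below 0.05 and the log2 fold change was beyond 1 in size. At 24 h, 1580 genes were higher (9.75% of those tested) and 1516 were lower (9.36%). The counts of gene lists below are to be read against these shares. All libraries of 24 h lay above all controls for 2598 of the 16204 genes and below all controls for 2080. Values below are CPM, counts per 1000000 after scaling with the TMM factors of edgeR. A log2 fold change is given with a standard error (SE), taken as its size divided by the square root of the test's F statistic. Throughout, n = 6 controls and 8 libraries of 24 h. The TMM factors were 0.769 to 0.85 in the controls and 0.992 to 1.33 at 24 h. All changes are thus relative to the bulk of the genes. When only column totals were used as scale, the median log2 fold change of all genes moved from 0.01 to 0.53, and 3540 genes were called higher and 640 lower. The share of higher calls among all calls thereby went from 51.0% to 84.7%. All 1580 genes called higher kept that call on this scale, and 640 of the 1516 called lower did.

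**Figure D1:**
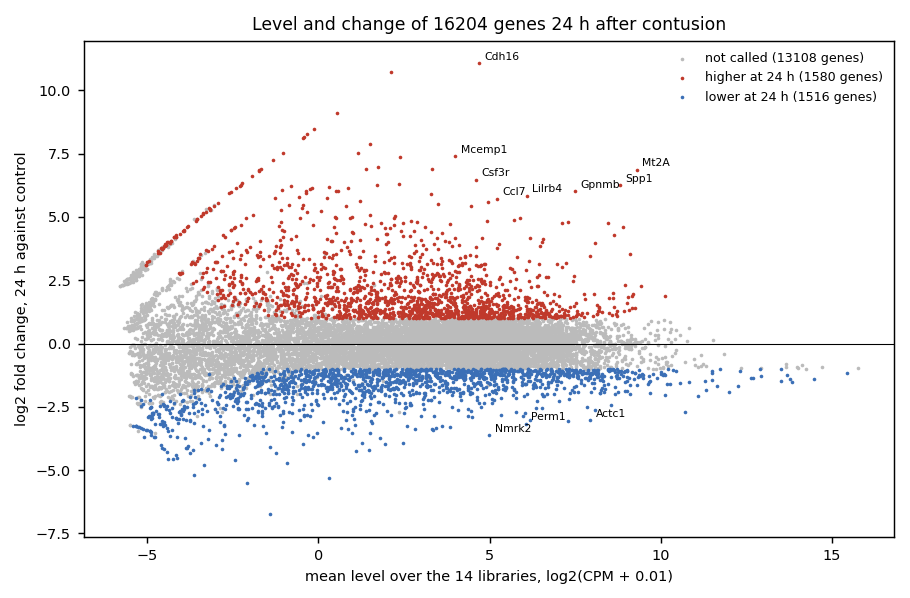
Mean level of each gene over the 14 libraries, as log2(CPM + 0.01), against its log2 fold change at 24 h. Each point is a gene; the 1580 red genes were called higher, the 1516 blue genes lower, and grey genes were not called. Named are some of the genes with the largest rises and falls among those with at least 20 CPM in the higher group, from Cdh16 at the top to Nmrk2.

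The first principal component of the log2 values held 70.6% of the variance and separated all controls from all libraries of 24 h. The libraries of 24 h differed more among themselves than the controls did. Libraries 7 and 8 of 24 h lay nearest to the controls and libraries 5 and 6 farthest. The columns of libraries 7 and 8 are those headed 24 h, and the columns of libraries 1 to 6 are headed 20 h. Totals fell below 25000000 in 3 libraries of each group and above it in 3 controls and 5 libraries of 24 h. Fitted within the lower class, 1325 genes were higher and 1142 lower, and within the higher class 1333 and 1273. Of 3000 called genes that could be fitted in both classes, 2993 had the same direction in each. The label of the extraction names retinas, but the retinal marker Gnat1 stayed below 1 CPM in every library and 6 further genes of that list had too few reads to be tested, whereas Acta1, skeletal muscle actin, stood at 65584 ± 5177 CPM (SD) in the controls.

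Among called genes with a mean of at least 20 CPM in the higher group and no overlap between groups, the 12 largest rises were those of Cdh16, Mcemp1, Mt2A, Csf3r, Spp1, Gpnmb, Lilrb4, Ccl7, Mt1, Cd8a, S100a9 and Ccl2. Most of them are genes of myeloid cells or of the response to metal and stress. Csf3r, the receptor for the neutrophil growth factor G-CSF, ranged from 0.0757 to 1.21 CPM (median 0.38) in the controls and from 23.1 to 73 CPM (median 38.5) at 24 h. Its log2 fold change was 6.48 ± 0.40 (SE, adjusted p = 5.3e-09). Spp1, which encodes the secreted adhesion protein osteopontin, went from 1.85 to 19.3 CPM (median 9.05) to 167 to 2421 CPM (median 631), a 77.1-fold difference of the means. Gpnmb, a membrane glycoprotein of phagocytes filled with debris, went from 2.92 to 8.72 CPM (median 4.13) to 192 to 628 CPM (median 289). The log2 fold changes of Spp1 and Gpnmb were 6.26 ± 0.67 (adjusted p = 1.1e-06) and 6.02 ± 0.36 (adjusted p = 4.0e-09). Mcemp1, a membrane protein of myeloid cells, had a log2 fold change of 7.40 ± 0.45, and Lilrb4, an inhibitory receptor of myeloid cells, 5.83 ± 0.33.

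The largest fold change was that of Cdh16, known as a cadherin of the kidney. It had 2 reads in all controls together and 12758 at 24 h, with 16 to 84.5 CPM (median 44) in the injured muscles. The ratio of the pooled levels was 2934, with a 95% counting interval of 812 to 24230 that leaves out the spread between rats. In the annotation of RefSeq (GRCr8) the gene next to Cdh16 is Rrad, a small GTPase known to be induced in injured muscle. Rrad, named here after its values were seen, ranged from 18.7 to 56.6 CPM (median 28.3) in the controls to 330.1 to 2159.9 CPM (median 664) at 24 h. Whether reads of Rrad transcripts that run on were counted for Cdh16 was not tested.

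The 12 largest falls were those of Nmrk2, Atcay, Adamts8, Sec14l5, RGD1565323, Perm1, Tceal7, Actc1, Acsl6, Lgi2, Sbk2 and Itgb1bp2. They were picked by the same rule, so their lack of overlap between groups follows from the choice. Several of these genes are known from striated muscle. Nmrk2, a kinase that makes a precursor of NAD in muscle, ranged from 43 to 130.4 CPM (median 54.5) in the controls and from 1.77 to 8.98 CPM (median 5.43) at 24 h. The log2 fold change was -3.63 ± 0.31 (adjusted p = 1.4e-07). Perm1, a regulator of mitochondrial genes in muscle, fell from 107 to 179 CPM (median 133) to 6.41 to 32.2 CPM (median 11.6). Actc1, the cardiac form of alpha-actin, fell from 189 to 985 CPM (median 443) to 18.2 to 109.8 CPM (median 49.7). The log2 fold changes of Perm1 and Actc1 were -3.17 ± 0.30 and -3.04 ± 0.42. Itgb1bp2, which encodes the striated muscle protein melusin, had a log2 fold change of -2.86 ± 0.38, and Acsl6, which activates long-chain fatty acids, -3.01 ± 0.35. With column totals as scale all 12 were still called lower.

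Genes of the contractile apparatus fell together. Of 12 tested genes of fast fibers, 10 were lower and none higher, and of 10 genes of slow fibers all 10 were lower, against 9.36% of all genes. The median log2 fold change was -1.27 over the fast and -1.56 over the slow genes, against 0.01 over all genes. Acta1 ranged from 58393 to 73146 CPM (median 64724) in the controls and from 19968 to 40779 CPM (median 27456) at 24 h. The groups did not overlap, and the log2 fold change was -1.18 ± 0.19 (adjusted p = 6.1e-05). Myh2, the myosin heavy chain of fast oxidative fibers, had a log2 fold change of -1.40 ± 0.26, and Neb, the nebulin ruler of the thin filament, -1.03 ± 0.12. Actn3 at -0.96 ± 0.25 and Ckm, the muscle creatine kinase, at -0.79 ± 0.24 did not pass the limit on the fold change. Among the slow genes Myh7b fell most, from 33.6 to 65.1 CPM (median 51.7) to 4.79 to 12.8 CPM (median 9.84) (log2 fold change -2.52 ± 0.21, adjusted p = 7.8e-08). Tnni1, the slow inhibitory troponin, had -2.0 ± 0.19, and Myl3, a slow myosin light chain, -1.62 ± 0.15. With column totals as scale 2 of the 12 fast and 6 of the 10 slow genes remained lower, Acta1 stood at -0.69 and was no longer called, and both medians stayed below 0, at -0.79 and -1.03. In bulk tissue, fewer fibers and less of these RNAs per fiber cannot be told apart.

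The summed level of the 12 fast genes was 212798 to 259199 CPM in the controls and 55219 to 158250.0 at 24 h, lowest in library 6 and highest in library 7. For the 10 slow genes it was 9349.5 to 14698 CPM in the controls and 3107 to 5102 at 24 h. Here library 8 was the lowest and library 1 the highest, so that the injured muscles kept a different order for slow than for fast genes.

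Genes that couple excitation to contraction also fell. Of 13 tested, 8 were lower and 1 higher, against 9.36% and 9.75% of all genes. Casq1, the calcium buffer of the fast sarcoplasmic reticulum, went from 3797 to 4943 CPM (median 4305) to 515 to 2384 CPM (median 844), a log2 fold change of -1.82 ± 0.33 (adjusted p = 2.1e-04). Pvalb, the cytosolic calcium buffer of fast fibers, had a log2 fold change of -1.91 ± 0.36, and Cacna1s, the voltage sensor of the T-tubule, -1.49 ± 0.20. Ryr1, the calcium release channel, stood at -0.72 ± 0.15 and was not called. Sln, which encodes the pump inhibitor sarcolipin, was higher at 1.02 ± 0.29 (adjusted p = 0.007), with overlapping groups, and the call was lost when any of 7 libraries was left out.

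Energy metabolism of the fiber followed. Of 17 genes of glycolysis and glycogen 13 were lower and none higher, with a median log2 fold change of -1.36. Pfkfb1, which sets the level of fructose 2,6-bisphosphate, went from 85.5 to 124 CPM (median 106) to 4.76 to 31.9 CPM (median 12.2) (log2 fold change -2.72 ± 0.36, adjusted p = 1.0e-05). Slc2a4, the insulin-responsive glucose transporter, had -2.0 ± 0.29 and Pgam2, the muscle phosphoglycerate mutase, -2.06 ± 0.36. Hk2, the hexokinase of muscle, stood apart from its list at 0.34 ± 0.15 and was not called. Of 17 nuclear genes of oxidative phosphorylation 12 were lower, with all 17 log2 fold changes below 0 (-1.82 to -0.93). These calls rest on the scale: none of the 17 was called with column totals, at a median of -0.58. The 13 genes of the mitochondrial genome lay just inside the limit. Their log2 fold changes were -1.02 to -0.54, only Mt-nd5 was called (-1.02 ± 0.16), and leaving out library 7 of 24 h raised the count to 6.

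Of 15 genes of fatty acid use 7 were lower and none higher, and with column totals as scale 2 were lower. Fabp3, the fatty acid binding protein of oxidative muscle, went from 322 to 673 CPM (median 411) to 46.3 to 107 CPM (median 73), without overlap, at a log2 fold change of -2.53 ± 0.19 (adjusted p = 3.6e-08). Ppargc1a, the coactivator of mitochondrial biogenesis, had a log2 fold change of -1.85 ± 0.26. Pdk4, which shuts off pyruvate oxidation in fasting, was not called (0.23 ± 0.43).

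**Figure D2:**
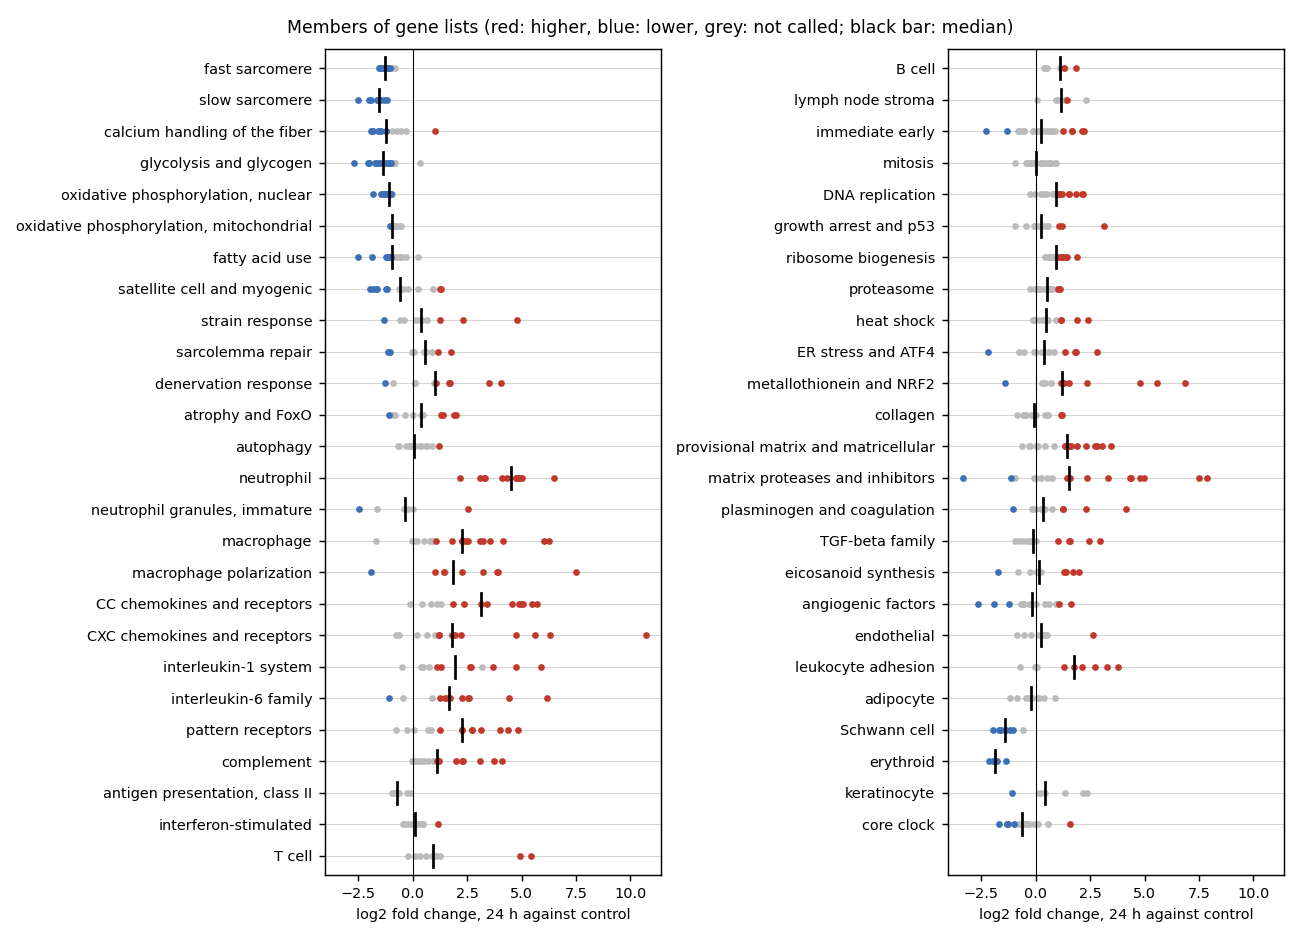
Log2 fold change at 24 h of the tested members of 51 gene lists, 1 row for each list and 1 point for each gene; red points were called higher, blue points lower, grey points were not called, and a black bar marks the median. The medians of the sarcomere, glycolysis and oxidative phosphorylation lists lie left of 0 and those of the neutrophil, macrophage and chemokine lists right of it, while the mitosis list straddles 0.

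Other genes of the fiber rose against this trend. Ankrd1, an ankyrin repeat protein of the titin filament that is induced by stretch, ranged from 9.94 to 35.7 CPM (median 22) in the controls and from 252 to 1753 CPM (median 489) at 24 h. The lowest injured muscle lay far above the highest control, and the log2 fold change was 4.77 ± 0.48 (adjusted p = 6.2e-07). Of 10 genes of the strain response 3 were higher and 1 lower. The other 2 that rose were Xirp1, an actin-binding protein of damaged fibers (2.32 ± 0.41), and Csrp3, the muscle LIM protein (1.27 ± 0.33). Nrap, a protein of myofibril assembly, fell (-1.34 ± 0.13), and Ankrd2, a relative of Ankrd1, was not called (0.65 ± 0.27).

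Genes that fibers express after loss of nerve input changed in part, with 5 of 10 called higher and 1 lower. Runx1, a transcription factor of denervated fibers and of leukocytes, went from 2.5 to 3.78 CPM (median 3.08) to 19.1 to 72.5 CPM (median 28.2). It rose without overlap, at a log2 fold change of 3.50 ± 0.31 (adjusted p = 1.7e-07). Chrnd, the delta subunit of the acetylcholine receptor, rose (1.72 ± 0.27) and Chrne, the adult epsilon subunit, fell (-1.28 ± 0.26), whereas Chrnb1, the beta subunit, and Musk, the kinase that organizes the synapse, were not called (0.12 ± 0.08 and 0.09 ± 0.15).

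Of 11 genes of atrophy 4 were higher and 1 lower. Fbxo32, the ubiquitin ligase atrogin-1, went from 29.7 to 48 CPM (median 38.4) to 71.8 to 245 CPM (median 143) (log2 fold change 1.91 ± 0.22, adjusted p = 2.1e-06). Trim63, the ligase MuRF1, rose by less (1.28 ± 0.28, adjusted p = 9.6e-04) and its groups overlapped. Ctsl, a lysosomal protease found in fibers and macrophages, had 1.97 ± 0.20. Foxo1 and Foxo3, the factors that drive this program, were not called (0.37 ± 0.13 and 0.01 ± 0.19). Of 23 proteasome subunits 2 were higher, Psmd11 (1.12 ± 0.13) and Psma5 (1.01 ± 0.12), a share near the 9.75% of all genes. Their median of 0.54 depends on the scale: 14 were higher with column totals. Of 14 autophagy genes only Atg7 was called (1.22 ± 0.15), also near the share of all genes.

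Of 11 genes of membrane repair 2 were higher and 2 lower, against 9.75% and 9.36% of all genes. With column totals as scale 7 were higher and none lower. Dysf, which encodes dysferlin, the protein that seals the torn sarcolemma, went from 156 to 176 CPM (median 164) to 281 to 477 CPM (median 351) and did not overlap (1.16 ± 0.11, adjusted p = 4.1e-07). Anxa2, an annexin recruited by dysferlin, rose from 85.1 to 101 CPM (median 93.3) to 258 to 367 CPM (median 318) (1.76 ± 0.10). Cav3, the caveolin of muscle, and Capn3, the muscle calpain, fell (-1.15 ± 0.19 and -1.06 ± 0.24), calls that were lost with column totals (-0.67 and -0.58). Trim72, the patching protein MG53, was not called (-0.06 ± 0.10).

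Regulators of myogenesis moved in both directions, more of them down. Of 14 genes 2 were higher and 6 lower, against 9.75% and 9.36% of all genes. The median log2 fold change was -0.57, with 10 of the 14 below 0. With column totals as scale 3 were higher and 4 lower, at a median of -0.05. Myog, which drives terminal differentiation and is also raised in denervated fibers, went from 57.4 to 103 CPM (median 79.4) to 105 to 272 CPM (median 204), without overlap (1.31 ± 0.20, adjusted p = 4.1e-05). Myf6, its relative in mature fibers, had 1.26 ± 0.24. Pax7, the mark of satellite cells, and Myf5 and Myod1, the marks of committed and activated ones, were not called, at -0.62 ± 0.22, 0.24 ± 0.17 and -0.52 ± 0.17. Calcr and Megf10, both expressed in satellite cells, fell (-1.68 ± 0.40 and -1.62 ± 0.19). Myh3, the embryonic myosin of new fibers, fell from 58.3 to 72.5 CPM (median 62) to 11.2 to 23.8 CPM (median 13.5), with no overlap (-1.94 ± 0.18, adjusted p = 3.4e-07).

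Genes of DNA replication were higher, whereas those of mitosis were not called. Of 20 replication genes 10 were higher and none lower, against 9.75% of all genes. Mcm5, a subunit of the replicative helicase, went from 2.8 to 5.19 CPM (median 3.75) to 13.2 to 24.7 CPM (median 16.2), a log2 fold change of 2.14 ± 0.16 (adjusted p = 2.7e-08). Mcm3 and Mcm6, other subunits, had 1.85 ± 0.18 and 1.51 ± 0.14, and Cdc6, which loads the helicase, 2.19 ± 0.24. The groups did not overlap for any of these 4 genes. Of 19 mitotic genes edgeR called none in either direction, 0 by DESeq2 as well. In edgeR 6 had an unadjusted p below 0.05, and 5 had an adjusted p below 0.05 but missed the limit on the fold change. The median was 0.01, with log2 fold changes from -0.95 to 0.91. Top2a, which untangles DNA in dividing cells, ranged from 4.67 to 12.2 CPM (median 9.51) in the controls and from 4.17 to 18.9 CPM (median 8.31) at 24 h, and the groups overlapped (-0.07 ± 0.29, adjusted p = 0.86). Mki67, the proliferation antigen, had -0.33 ± 0.27. With column totals as scale 5 mitotic genes were called higher, and the count for replication became 15.

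Many replication genes are known targets of the E2F factors, so their promoters were searched for the E2F words TTTGGCGC, TTTCCCGC, TTTGCCGC and TTTCGCGC on both strands, in the 250 bases before the gene's start in RefSeq (build GRCr8). Of 33469 promoters 1.73% held a word. Of 16 replication genes with a promoter there, 7 did, among them 4 of the 7 that were higher and 3 of the 9 that were not, and of 18 mitotic genes 1 did. The promoters of Mcm5 (chr19:13488563-13488812, plus strand, 3 matches) and Mcm6 (chr13:42404353-42404602, minus strand, 2 matches) are shown as examples, both from genes that were higher. Mcm2, Gins1 and Mcm7 also had 2 matches, of which Mcm7 was not called (0.26), and Mcm3, which rose, had none. Matches are in capitals and can overlap between strands.
Mcm5: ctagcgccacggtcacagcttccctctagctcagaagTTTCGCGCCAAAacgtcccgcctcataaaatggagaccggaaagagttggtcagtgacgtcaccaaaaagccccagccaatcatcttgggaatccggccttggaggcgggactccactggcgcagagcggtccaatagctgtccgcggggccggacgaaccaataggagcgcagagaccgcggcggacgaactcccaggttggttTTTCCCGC
Mcm6: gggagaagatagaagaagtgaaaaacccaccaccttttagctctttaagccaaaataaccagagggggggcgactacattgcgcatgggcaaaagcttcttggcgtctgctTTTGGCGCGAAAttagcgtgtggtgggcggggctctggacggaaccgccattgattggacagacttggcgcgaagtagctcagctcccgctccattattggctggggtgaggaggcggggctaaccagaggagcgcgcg

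Cdkn1a, the cyclin kinase inhibitor p21, went from 12.5 to 30.1 CPM (median 23.2) to 110.0 to 278 CPM (median 219) (3.14 ± 0.27, adjusted p = 1.1e-07). Of 12 genes of growth arrest and the p53 response 3 were higher and none lower, against 9.75% of all genes called higher. An adjusted p below 0.05 was found for 6 of the 12. Mdm2, a direct p53 target, was not called (-0.04 ± 0.07). Of 16 genes of ribosome biogenesis 7 were higher and all 16 had a positive log2 fold change, and with column totals as scale 15 were higher. Myc, the factor that drives this program, went from 12 to 19.1 CPM (median 13.8) to 34.5 to 90.3 CPM (median 51.7) (1.90 ± 0.18, adjusted p = 3.7e-07). Fbl, the methyltransferase fibrillarin, had 1.40 ± 0.14.

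Neutrophil genes rose. All 12 tested genes of the list were higher, against 9.75% of all genes, with log2 fold changes of 2.17 to 6.48 and a median of 4.53. S100a9, a calcium-binding alarmin of neutrophils, went from 1.83 to 5.09 CPM (median 2.86) to 39.9 to 175 CPM (median 96) (4.94 ± 0.37, adjusted p = 3.1e-08), and its partner S100a8 from 0.719 to 3.44 CPM (median 1.46) to 25.3 to 83 CPM (median 48.1). Cxcr2, the receptor for neutrophil-attracting chemokines, went from 0.0764 to 0.427 CPM (median 0.253) to 3.19 to 10.6 CPM (median 4.65) (4.75 ± 0.43). The injured muscles lay above all controls for 11 of the 12 genes, against 2598 of the 16204 genes tested. Fpr1 was the exception, with no read in any control and 38 reads at 24 h. It thus entered the test only through the injured group, and within either depth class it was not called. The summed level was 14.2 to 24.4 CPM in the controls and 162 to 477 at 24 h, lowest in library 7 and highest in library 6, which had been the highest and the lowest for the fast fiber genes. The granule genes that neutrophils transcribe only in the marrow stayed near 0: Mpo, the myeloperoxidase, had 0.0757 to 1.11 CPM (median 0.334) in the controls and 0.0421 to 1.27 CPM (median 0.137) at 24 h, and of the 7 genes Elane was higher and Ngp lower, both below 3 CPM throughout.

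Macrophage genes rose unevenly, with 13 of 20 higher and none lower. Lyz2, the lysozyme of phagocytes, went from 51.2 to 101 CPM (median 81.7) to 439 to 1703 CPM (median 859) (3.55 ± 0.33, adjusted p = 2.3e-07). Cd163, the scavenger receptor for hemoglobin, went from 9.5 to 14.7 CPM (median 11.9) to 69.9 to 164 CPM (median 117) (3.25 ± 0.18, adjusted p = 2.9e-09). Msr1, a scavenger receptor for modified lipoproteins, had 4.15 ± 0.29. C1qa, C1qb and C1qc, the subunits of complement C1q that resident macrophages make, were not called, at -0.03 ± 0.18, 0.53 ± 0.15 and 0.06 ± 0.16, with overlapping groups. Adgre1, which encodes the F4/80 antigen, was not called either (0.95 ± 0.32).

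Of 10 tested genes of macrophage polarization 7 were higher and 1 was lower, Vegfa (-1.94), against 9.75% and 9.36% of all genes. Arg1, the arginase of the reparative form, went from 0.459 to 1.75 CPM (median 1.18) to 7.32 to 32.8 CPM (median 16.1) (3.92 ± 0.43), and Mrc1, the mannose receptor, had 2.27 ± 0.14. Nos2, the nitric oxide synthase of the inflammatory form, and Tnf were not called and stayed low, with 0.161 to 4.28 CPM (median 0.529) and 0 to 0.17 CPM (median 0.0475) at 24 h, although Nos2 was called higher without library 6 of 24 h (1.63). Mmp12, the elastase of macrophages, had no read in any control and 211 reads at 24 h, at least 32.4-fold higher against a limit of 3 counts over the control group.

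Chemokines that attract monocytes were among the largest rises. Of 15 CC chemokines and receptors 10 were higher and none lower. Ccl2, the main monocyte attractant, went from 2.06 to 4.06 CPM (median 3.0) to 54.3 to 136 CPM (median 84.6) (4.88 ± 0.30, adjusted p = 4.9e-09), and Ccl7, its neighbor in function, from 0.954 to 1.64 CPM (median 1.15) to 40.4 to 96.1 CPM (median 61.4) (5.72 ± 0.28, adjusted p = 8.2e-10). The receptors Ccr1 and Cx3cr1 rose as well (3.16 ± 0.23 and 5.08 ± 0.79). Ccl5, a T cell attractant, and Ccl24, an eosinophil attractant, were not called (0.41 ± 0.34 and -0.11 ± 0.45).

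Of 15 CXC chemokines and receptors 9 were higher and none lower. Cxcl3, a neutrophil attractant, had no read in any control and 4.19 to 15.1 CPM (median 6.55) at 24 h. The injured muscles were at least 324-fold higher against a limit of 3 counts over the control group. Its relatives Cxcl2 and Cxcl6 had log2 fold changes of 5.63 ± 0.61 and 6.29 ± 0.51, and Cxcl1 one of 1.95 ± 0.23. Cxcl12, the homing factor of stem cells and lymphocytes, was not called (-0.77 ± 0.16), with all injured muscles below all controls.

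Genes of the interleukin-6 family rose among ligands, receptor chains and feedback, while 1 receptor gene fell. Of 12 genes 9 were higher and 1 lower. Il6, a cytokine of the acute response and of working muscle, had 5 reads over 2 controls and none in the other 4, against 1.27 to 9.39 CPM (median 2.43) at 24 h, with library 5 the highest (6.15 ± 0.71, adjusted p = 2.5e-06). Osm, which encodes oncostatin M, a cytokine of neutrophils and macrophages, went from 0.0382 to 0.288 CPM (median 0.173) to 2.24 to 4.53 CPM (median 3.32) (4.43 ± 0.37). Il6r and Osmr, the receptor chains, rose (1.70 ± 0.13 and 1.64 ± 0.14), and Lifr, the receptor of leukemia inhibitory factor, fell (-1.08 ± 0.15). Socs3, the feedback inhibitor, went from 3.1 to 11.5 CPM (median 7.19) to 23.6 to 88.9 CPM (median 37.4) (2.57 ± 0.32, adjusted p = 5.3e-06).

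In the interleukin-1 system 7 of 12 genes were higher and none lower, antagonists included. Il1rn, the receptor antagonist, went from 0 to 0.556 CPM (median 0.283) to 8.09 to 40.1 CPM (median 14.4) (5.91 ± 0.50, adjusted p = 1.0e-07). Il1b, the agonist, went from 0.791 to 1.07 CPM (median 0.947) to 6.24 to 16.7 CPM (median 12.7) (3.67 ± 0.26), and Il1r2, the decoy receptor, had 4.76 ± 0.38. Nlrp3, the sensor of the inflammasome, rose (2.67 ± 0.30), while Casp1, its protease, was not called (0.38 ± 0.15).

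Receptors of the innate response rose in the same muscles, with 9 of 14 pattern receptors and 9 of 17 complement genes higher and none lower. Clec4e, a receptor for dead cells and fungal lipids, went from 0 to 1.07 CPM (median 0.299) to 7.47 to 18.3 CPM (median 11) (4.83 ± 0.45), and Tlr2, the receptor of lipoproteins, from 0.715 to 1.97 CPM (median 1.72) to 15.2 to 41.2 CPM (median 21.6) (4.01 ± 0.29). Tlr4, the receptor of endotoxin, was not called (0.71 ± 0.20). C3ar1 and C5ar1, the receptors of the anaphylatoxins, had 4.09 ± 0.39 and 3.10 ± 0.19. Of 9 adhesion molecules 6 were higher, among them Itgb2, the integrin chain of all leukocytes (3.76 ± 0.30), and Selp, the selectin with which endothelium first captures them (1.77 ± 0.27). Vcam1, a ligand of monocytes and lymphocytes, was not called (-0.02 ± 0.19).

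Genes of antigen presentation on class II and of the interferon response were mostly not called. By edgeR none of the 8 class II genes passed both limits in either direction, and DESeq2 called 0 higher and 0 lower. In edgeR 5 had an unadjusted p below 0.05, and 4 had an adjusted p below 0.05 but missed the limit on the fold change. The median was -0.71, and -0.17 with column totals as scale. Cd74, the invariant chain, ranged from 164 to 269 CPM (median 202) in the controls and from 94.7 to 232 CPM (median 129.8) at 24 h (-0.61 ± 0.19). Of 13 interferon-stimulated genes only Ifit3 was called (1.17 ± 0.27, with overlap), at a median of 0.09 over the list.

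Cd8a and Cd8b, the chains of CD8, rose apart from other T cell genes. Cd8a went from 0.119 to 1.81 CPM (median 0.621) to 23.1 to 55.1 CPM (median 35.1) (5.44 ± 0.39, adjusted p = 2.2e-08) and Cd8b from 0 to 0.303 CPM (median 0.0715) to 1.47 to 4.92 CPM (median 3.42) (4.95 ± 0.54). Cd3e, a chain of the T cell receptor complex, was not called, with 0.0397 to 1.15 CPM (median 0.462) in the controls and 0.339 to 5.81 CPM (median 0.469) at 24 h. In rats CD8 is known on macrophages and natural killer cells as well as on T cells. No other of the 11 T cell genes was called.

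Library 1 of 24 h stood apart in lymphoid genes. Its Glycam1, a mucin of lymph node vessels, was 37 CPM against at most 0.322 in the other 7, and its Cd3e 5.81 against at most 0.741. The summed level of the 7 B cell genes was 1.34 to 14.6 CPM in the controls and 4.57 to 46.8 at 24 h. With this library the B cell list had a median of 1.11 and 2 genes higher (Cd22 and Fcrla), and without it a median of -0.14 and none. The medians of the T cell and lymph node lists went from 0.93 to 0.10 and from 1.17 to 0.04. Cd8a and Cd8b stayed called without it, at 5.36 and 4.93. Among the controls library 6 was the highest in Glycam1, at 4.20 CPM against at most 0.791 in the others. Its B cell and lymph node lists lay 1.08 and 1.35 above the mean of the controls. That control was kept in the fit without library 1 of 24 h.

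**Figure D3:**
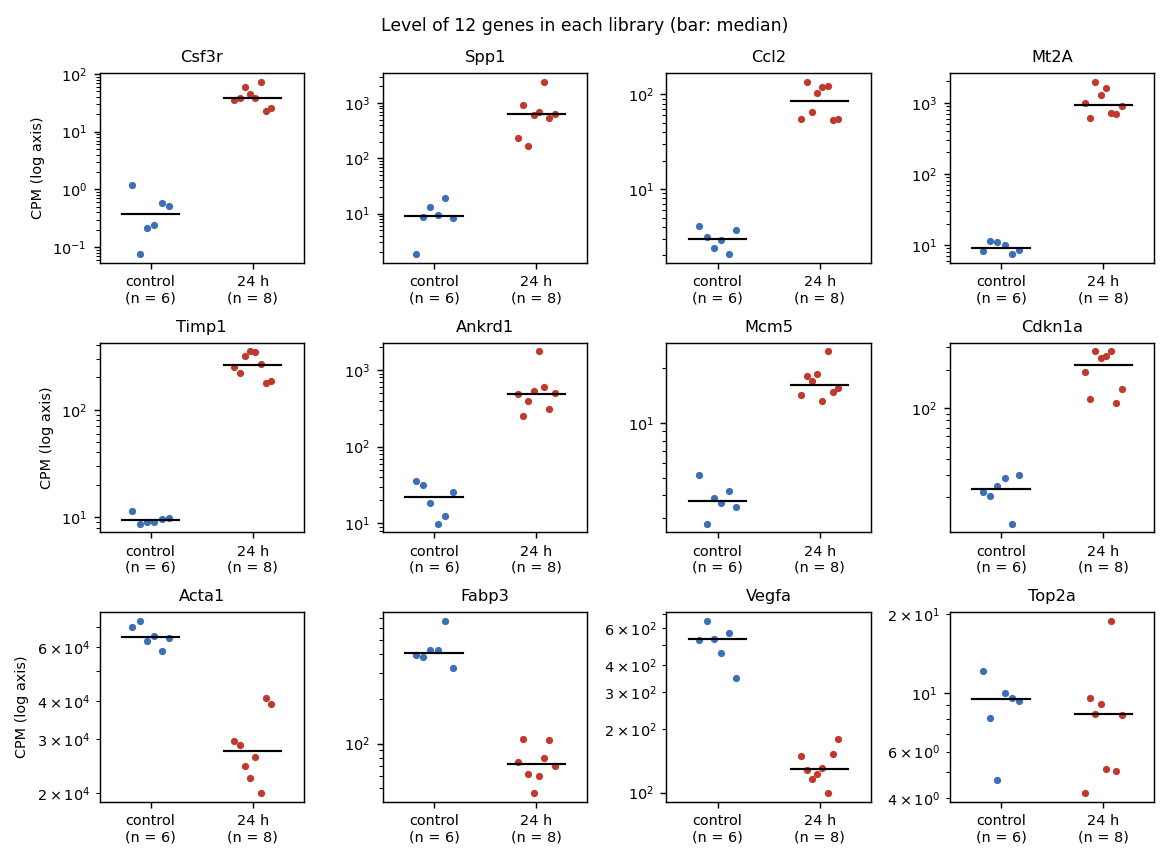
CPM of 12 genes in each library, on a log axis; blue points are the 6 controls, red points the 8 libraries of 24 h, and a bar marks the median. The groups are apart in 11 of the panels, while Top2a overlaps; Acta1, Fabp3 and Vegfa are lower at 24 h.

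Metallothioneins, small proteins that bind zinc and copper, rose most among the stress genes. Mt2A ranged from 7.49 to 11.4 CPM (median 9.22) in the controls and from 602 to 1967 CPM (median 945) at 24 h, a 116-fold difference of the means, with a log2 fold change of 6.86 ± 0.33 (adjusted p = 7.0e-10). Mt1 went from 0.719 to 1.57 CPM (median 1.18) to 25.9 to 68.5 CPM (median 55.3) (5.59 ± 0.25, adjusted p = 3.7e-10). Neither overlapped. Mt3, the form of the brain, fell (-1.43 ± 0.29) at levels below 5 CPM. Hmox1, which degrades the heme set free from blood and myoglobin, went from 7.04 to 11.1 CPM (median 8.19) to 126 to 323 CPM (median 230.0) (4.78 ± 0.21, adjusted p = 3.4e-10). Of the 13 genes of this list 8 were higher, among the targets of the factor NRF2 also Slc7a11, the cystine carrier (2.35 ± 0.59), and Gsr, glutathione reductase (1.32 ± 0.13). Nfe2l2, which encodes NRF2 itself, was not called (0.33 ± 0.07).

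Metallothionein promoters are known for metal response elements, and the core words TGCGCNC and TGCACNC (N, any base) were searched on both strands in the 250 bases before the start, again in RefSeq (GRCr8). Of all promoters 20.57% held a core and 4.897% more than 1. Of 12 genes of this list with a promoter 4 held a core: Mt1 with 6 matches (chr19:10832976-10833225, minus strand), Mt2A with 4 (chr19:10838709-10838958, minus strand), Mt3 with 3 and Gclm with 2. Those of the 2 genes that rose most are shown with the cores in capitals.
Mt1: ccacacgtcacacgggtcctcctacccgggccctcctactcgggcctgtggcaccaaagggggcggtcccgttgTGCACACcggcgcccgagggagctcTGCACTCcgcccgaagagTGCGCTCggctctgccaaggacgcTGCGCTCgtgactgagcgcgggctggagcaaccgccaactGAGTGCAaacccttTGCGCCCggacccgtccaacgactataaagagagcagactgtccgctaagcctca
Mt2A: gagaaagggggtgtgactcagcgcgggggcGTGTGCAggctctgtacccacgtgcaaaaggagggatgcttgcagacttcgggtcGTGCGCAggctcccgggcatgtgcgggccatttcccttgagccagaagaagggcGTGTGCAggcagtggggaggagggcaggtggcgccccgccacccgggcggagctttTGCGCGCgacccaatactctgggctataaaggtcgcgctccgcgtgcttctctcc

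Of 14 genes of endoplasmic reticulum stress and the factor ATF4, 4 were higher and 1 lower. Hspa5, the chaperone BiP, went from 206 to 228 CPM (median 210.4) to 583 to 972 CPM (median 727) (1.84 ± 0.12, adjusted p = 7.6e-09), and Hsp90b1 had 1.82 ± 0.12. Asns, asparagine synthetase, rose (2.79 ± 0.26), while Chac1, which degrades glutathione and is another target of ATF4, fell (-2.21 ± 0.40). Of 12 heat shock genes 4 were higher, led in p by Dnaja1 and Hsph1 (1.18 ± 0.11 and 1.17 ± 0.13). Hspb1, a small heat shock protein of fibers, went from 369 to 486 CPM (median 448) to 779 to 3105 CPM (median 1449) (1.87 ± 0.26).

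Of 20 immediate early genes, which respond first to a stimulus, 5 were higher and 2 lower. Junb and Fosl1, subunits of AP-1, were higher (1.69 ± 0.16 and 2.22 ± 0.25), while Fos and Egr1 were not called (-0.10 ± 0.41 and -0.84 ± 0.26). Nr4a1, a nuclear receptor that responds to activity of the fiber, fell from 205 to 302 CPM (median 229.6) to 23 to 93.4 CPM (median 36.4) (-2.29 ± 0.30, adjusted p = 9.4e-06). Of 13 genes tested among the markers that the study itself chose on these samples, which are thus no independent evidence, 5 were higher and none lower (9 were higher with column totals): Cxcr2, Fosl1, Myc, Junb and Cd44, the hyaluronan receptor (1.60 ± 0.15). Btg2, Nfe2l2, Top2a, Ttk, Cdca8, Nuf2, Aurkb and Mad2l1 were not called.

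Genes of the circadian clock differed as well, 1 of 16 higher and 5 lower, against 9.75% and 9.36% of all genes. Arntl, the activator BMAL1, rose from 2.49 to 5.72 CPM (median 4.39) to 7.24 to 23.8 CPM (median 9.93) (1.55 ± 0.30), and Per3, Hlf and Dbp, which it drives, fell (-1.31 ± 0.24, -1.68 ± 0.30 and -1.32 ± 0.26). With column totals as scale 2 were higher and 1 was lower. By the methods of the study the controls were killed within the period that the injured groups span, but the clock hour is not given in the sources used here, so that time of day and injury cannot be told apart for these genes.

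Genes of the provisional matrix rose, whereas most collagen genes were not called. Of 18 genes of provisional matrix and matricellular proteins 11 were higher and none lower, with a median of 1.42. Vcan, the proteoglycan versican, went from 22.6 to 30.3 CPM (median 26.7) to 145 to 329 CPM (median 217) (3.04 ± 0.19, adjusted p = 5.3e-09). Thbs1, thrombospondin 1, went from 6.18 to 11.2 CPM (median 8.28) to 51.1 to 152 CPM (median 88) (3.44 ± 0.26), and Fn1, fibronectin, had 1.88 ± 0.25. Lox, the enzyme that cross-links collagen, rose (2.72 ± 0.22). Of 13 collagen genes 2 were higher, Col18a1 (1.23 ± 0.17) and Col12a1 (1.16 ± 0.18), against 9.75% of all genes. Col1a1 and Col3a1, the fibrillar collagens of scars, were not called (-0.52 ± 0.21 and -0.47 ± 0.21), nor was Acta2, the actin of myofibroblasts (0.09 ± 0.20).

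Of 19 matrix proteases and inhibitors 11 were higher and 2 lower. Timp1, an inhibitor of metalloproteinases, went from 8.71 to 11.5 CPM (median 9.31) to 178 to 350.1 CPM (median 259), a 27.6-fold difference of the means (4.79 ± 0.19, adjusted p = 6.1e-11). Timp4, the inhibitor of muscle and heart, fell (-1.14 ± 0.25), and Timp2 was not called (0.03 ± 0.11). Mmp3, stromelysin 1, had 2 reads in all controls together and 1.42 to 12.1 CPM (median 4.43) at 24 h. Adamts4, an aggrecanase that also cuts versican, rose from 0.569 to 1.63 CPM (median 0.931) to 13 to 34.8 CPM (median 18) (4.36 ± 0.31), and Adamts8, a relative, fell from 15.4 to 29.6 CPM (median 23) to 0.692 to 7.67 CPM (median 1.16) (-3.34 ± 0.45). Mmp2, a gelatinase of fibroblasts, was not called (0.24 ± 0.14).

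Plaur, the urokinase receptor, which gathers plasminogen activation at the cell surface, went from 3.56 to 5.23 CPM (median 3.92) to 13.9 to 25 CPM (median 21) (2.30 ± 0.13, adjusted p = 3.5e-09). The activators Plau and Plat were not called (0.30 ± 0.13 and -0.14 ± 0.16). In the TGF-beta family 5 of 13 genes were higher, with Inhbb, an activin subunit, at 2.45 ± 0.35 and Gdf15, a stress cytokine, at 2.94 ± 0.51. Mstn, myostatin, was not called (-0.41 ± 0.42). Of 10 genes of eicosanoid synthesis 4 were higher, among them Alox5ap, needed for leukotrienes (1.99 ± 0.19), and Ptgs2, the inducible cyclooxygenase (1.40 ± 0.42, with overlap).

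Of 16 angiogenic genes 2 were higher and 3 lower, against 9.75% and 9.36% of all genes, with a median of -0.18. The called ones thus moved in opposite directions. Vegfa, the main angiogenic factor of muscle fibers, fell from 349.9 to 649.7 CPM (median 531) to 99.5 to 180.2 CPM (median 129), without overlap (-1.94 ± 0.14, adjusted p = 2.5e-08), and Esm1, a gene of endothelial tip cells, fell from 25.4 to 41.3 CPM (median 32.3) to 3.76 to 7.74 CPM (median 5.09) (-2.64 ± 0.15, adjusted p = 3.0e-09). Pgf, placental growth factor, rose (1.62 ± 0.22). Kdr, the receptor of Vegfa, was not called (-0.69 ± 0.09, adjusted p = 7.9e-06), with all injured muscles below all controls. Over 8 endothelial markers only Robo4 was called (2.61 ± 0.84, below 4 CPM), Vwf and Cdh5 were not (0.41 ± 0.12 and -0.55 ± 0.08), and the summed level was 929.6 to 1041 CPM in the controls and 844 to 1047 at 24 h. Of 10 adipocyte genes edgeR called none and DESeq2 0 higher and 0 lower. In edgeR 2 had an unadjusted p below 0.05, and 1 had an adjusted p below 0.05.

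Schwann cell and red cell genes were lower. Of 9 Schwann cell genes 8 fell. The controls spread widely and the groups overlapped for all 9 genes, and with column totals as scale 4 of the 9 were called. All 6 tested erythroid genes fell. Hbb, beta-globin, went from 153 to 503 CPM (median 252) to 24.4 to 146 CPM (median 51.8) (-1.97 ± 0.37, adjusted p = 2.9e-04), and Alas2, the heme enzyme of red cells, had -1.92 ± 0.40. Globin genes have near-identical copies between which reads may be split, so that the level of a single copy is uncertain. Of the markers of skin, the basal keratins Krt5 and Krt14 reached 1.14 and 1.11 CPM in library 8 of 24 h and stayed below 0.2 in all others.

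**Figure D4:**
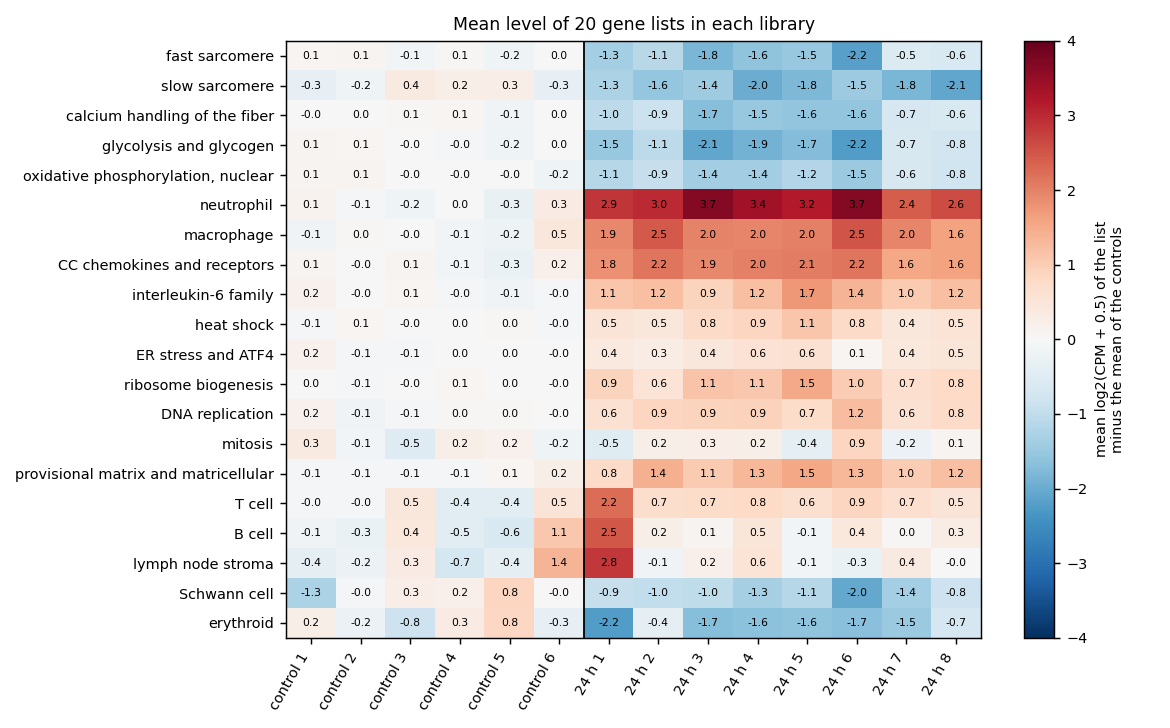
Mean log2(CPM + 0.5) of 20 gene lists in each of the 14 libraries, minus the mean of the 6 controls. Rows are lists and columns libraries, and the numbers in the cells are the plotted differences; libraries 7 and 8 of 24 h have the smallest falls of fast fiber genes (-0.5463 and -0.6126) and library 6 the largest (-2.1707), and library 1 is the highest in B cell genes (2.4841).

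The injured muscles differed in degree. In library 6 the mean log2 level of the fast fiber genes lay 2.17 below that of the controls and that of the neutrophil genes 3.68 above, and in library 7 the values were 0.55 below and 2.41 above. Library 3 had the second highest neutrophil level, 3.67 above the controls, and the second largest fall of the fast genes. Chaperone and ribosome genes had another order. Library 5 was highest in heat shock genes, 1.11 above the controls, in ribosome biogenesis, 1.52 above, and in the interleukin-6 family, 1.74 above. Mitotic genes varied most against their small mean difference, from 0.49 below the controls in library 1 to 0.86 above in library 6. These orders are given as a description, since the libraries of a group share normalization. The column headings set libraries 7 and 8 (headed 24 h) apart from libraries 1 to 6 (headed 20 h). Depth sets libraries 1 to 3 (totals below 25000000) apart from libraries 4 to 8. Whether the orders go with heading or depth was not tested.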

How the data were processed

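Poly-A RNA of rat muscle was sequenced by the authors, who, per the labels and the study's methods, trimmed reads with Trimmomatic, aligned them to rn6 with HISAT2 2.1.0 and counted unambiguous reads per gene with HTSeq 0.6.1, reverse stranded. The deposited values are raw counts of 20662 genes in 60 columns, of which the 46 outside the comparison were not used. Counts of the 14 libraries were fitted with edgeR 4.0.16 (TMM, quasi-likelihood, Benjamini-Hochberg) in R 4.3.3 over genes with a total of 5 or more, with no covariate. The authors' DESeq2 Wald test (version 1.42.0 here) was an alternative, as were RLE and column-total scaling, other filters and limits, thinned counts and leaving out each library. The fit was tested on simulated data. No libraries of a group agreed within sampling noise (chi-square per degree of freedom 9.725 or more). P-values measure the spread between rats.

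The comparison and the 53 gene lists (679 genes, 645 of them tested) were chosen with earlier results of these data known, so no p is given for a list. Genes were named by this rule: the 12 largest rises and falls among called genes with a mean of 20 CPM or more in the higher group and no overlap, up to 4 members of each list with the smallest p, markers chosen by the study, and further list members as examples, called or not. Some genes that the rule names are not reported here. A control group without reads was set at 3 counts for a fold limit, and intervals cover counting error only. Promoters come from RefSeq (GRCr8).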

Additional observations from a re-analysis of the deposited data

Results flagged for a closer look

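For each of 53 gene lists and for the total count, the libraries of each group were searched for a value far from the others, 108 groups of values in all, of which 8 were marked. Chance marks about 1 in 20. Values are the mean log2(CPM + 0.5) of a list in the library that stood apart, followed by that of its nearest neighbor. Library 1 of 24 h was high in the lists for T cell (2.57 against 1.18), B cell (2.51 against 0.52) and lymph node stroma (3.66 against 1.41). Library 2 of 24 h was high for eicosanoid synthesis (3.13 against 2.65), library 8 of 24 h for keratinocyte (0.90 against 0.32), and library 6 of 24 h was low for Schwann cell (2.81 against 3.48). Control library 6 was high for macrophage (4.31 against 3.90) and low for fatty acid use (7.32 against 7.46).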

How the results depend on the processing

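The counts of 1580 genes higher and 1516 lower moved by more than 1.5 times only with column totals as scale (3540 and 640), with no limit on the fold change (4440 and 4129) and with a log2 limit of 2 (647 and 376). With RLE factors, filterByExpr, no filter, DESeq2 or thinned counts they lay between 1376 and 1585 for higher and between 1299 and 1558 for lower. Leaving out a library gave 1485 to 1663 higher (both ends from 24 h libraries, 6 and 7) and 1348 to 1629 lower (the same libraries). No paired analysis was possible because library numbers, and the time points of the other columns, can be had only by matching values to the study's table and not from the labels. A replicate block and a fit with the other time points are therefore left out. Depth class as a term, and the fits within a class, were chosen after seeing the data, and gave 1572 and 1483 for the former. Of 204 named genes, no called gene changed direction, and no other gene became called against the sign it had. Genes that were not called could change sign. Without 24 h library 1, Glycam1 went from 2.33 to -2.82 and Cd3e from 1.03 to -0.16. Column totals as scale ended the call of 13 (-0.94 to -0.52): Acta1, Myh2, Neb, Nrap, Mt-nd5, Cav3, Capn3, Chrne, Lifr, Mt3, Timp4, Per3 and Dbp. They added the call of 10 (1.03 to 1.87): Adgre1, Ankrd2, Aurkb, C1qb, Cdca8, Gclm, Mad2l1, Nos2, Tlr4 and Ttk. Of the list counts without such a value in the text, those that moved on that scale by over 1.5 times and by more than 1 gene were, as genes higher unless marked: glycolysis and glycogen 8 instead of 13 lower, strain response 5 instead of 3, autophagy 4 instead of 1, immediate early 8 instead of 5, growth arrest and p53 5 instead of 3, T cell 5 instead of 2, collagen 4 instead of 2 and angiogenic factors 5 instead of 2. Leaving out a library ended the call of 8 near the limit: Capn3 (-0.94 without 24 h library 3, -0.99 without 5), Neb (-0.99 without 1, -0.98 without 4), Timp4 (-0.997 without 6), Fcrla (1.52 without 1), Cd22 (0.96 to 1.23, 8 libraries), Mt-nd5 (-0.999 to -0.96, 6 libraries), Psma5 (0.95 to 0.98, 5 libraries) and Sln (0.86 to 0.98, 7 libraries). The call appeared for Actn3 (-1.14 without 24 h library 7, -1.08 without 8), Adgre1 (1.0 to 1.08, 6 libraries), Egr1 (-1.05 without 24 h library 8) and Nos2. The cause was not tested. Genes with few reads, such as Tnf, Mpo and Il6 in the controls, are limited by depth.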
